A study of Homo sapiens with 9 samples.

Results

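The stathmins and the neuronal microtubule-associated proteins are the 10 genes STMN1, STMN2, STMN3, STMN4, MAP1A, MAP1B, MAP2, MAP4, MAP6 and MAPT, out of 58735 genes in the count table. Each was found by matching its GENCODE 29 symbol to 1 Ensembl identifier, which gave 4 stathmins and 6 microtubule-associated proteins. RNA was sequenced from HEK293T, a line derived from human embryonic kidney with SV40 large T antigen added, which is no neuron. Cells of the first group had received 10 nM of an siRNA against PHF12 for 36 h, those of the second an siRNA against SUDS3 at the same dose and time, and those of the third a negative control siRNA, with 3 libraries each (PHF12 knockdown, SUDS3 knockdown and Control). Transfection reagent and dose were shared by all 3 groups, and the labels name 1 siRNA per target. The genes were selected with measured fold changes of these libraries known: MAP6 and STMN3 had stood out by their fold changes against Control and prompted the choice of the family. For these 2 genes every value is a description and no p is given. The others were tested in a fit over all genes, and STMN4, which entered that fit through 1 group, is given by its counts.

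Microtubules are polymers of alpha- and beta-tubulin that grow and shrink at their ends. Stathmins bind free tubulin dimers and promote shrinkage, and kinases switch them off by phosphorylation. The structural microtubule-associated proteins bind along the polymer and stabilise or bundle it. In neurons MAP2 marks dendrites and tau, the product of MAPT, marks axons, and MAP6 is known for microtubules that resist cold. STMN1 and MAP4 are also abundant in dividing cells outside the nervous system, whereas STMN2, STMN3 and STMN4 are typical of neurons. PHF12 and SUDS3 both belong to SIN3 complexes, repressors of transcription that carry histone deacetylases, and the comparison asks how the RNA of these genes differs after each siRNA.

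Library totals ran between 37962926 and 50946148 counts. The target of each siRNA was checked first: PHF12 RNA was at 27.9, 24.5 and 28.3 CPM (counts scaled by TMM to a common library size) in PHF12 knockdown libraries, against 50.3, 50.5 and 48.8 CPM in Control. That left 54.0% of the PHF12 transcript. SUDS3 RNA was at 21.1, 22.3 and 22.9 CPM in SUDS3 knockdown libraries, against 107.5, 114.0 and 111.8 CPM in Control, which left 19.9%. Neither siRNA moved its own target alone. SUDS3 RNA was also down to 72.9% of Control in PHF12 knockdown (edgeR adjusted p = 6.83e-10), and PHF12 RNA was up to 123% in SUDS3 knockdown (edgeR adjusted p = 7.19e-05). The neuron marker list summed to between 30.7 and 34.0 CPM over its 9 genes in PHF12 knockdown, 27.9 and 31.5 CPM in SUDS3 knockdown and 29.8 and 33.9 CPM in Control, with ELAVL4 at 0 in every library. Glia markers (8 genes, SOX10 at 0) summed to between 12.0 and 16.6 CPM over all libraries, most of it OLIG2. GFAP in that list was at 2.29 CPM in PHF12 knockdown, 0.510 CPM in SUDS3 knockdown and 1.12 CPM in Control (edgeR adjusted p = 0.0169 and 0.0132 against Control). MBP was at 1.73 CPM in PHF12 knockdown, against 2.87 CPM in Control (edgeR adjusted p = 0.0163). The renal epithelium list (10 genes, CDH16 and UMOD at 0) summed to between 112.1 and 114.9 CPM in PHF12 knockdown, 95.5 and 97.1 CPM in SUDS3 knockdown, and 105.9 and 115.9 CPM in Control, most of it KRT18. Its members moved apart within that sum. KRT8 was at 35.0 CPM in PHF12 knockdown, 12.9 CPM in SUDS3 knockdown and 19.7 CPM in Control (edgeR adjusted p = 1.33e-10 and 2.93e-07). CDH1 fell with both siRNAs, by 1.36 on the log2 scale in PHF12 knockdown and by 0.63 in SUDS3 knockdown, and EPCAM fell by 0.90 in SUDS3 knockdown. Of the neuron markers, 8 were tested. In PHF12 knockdown 2 were higher and 2 lower, where 31.9% of all genes tested were higher or lower (edgeR adjusted p under 0.05). In SUDS3 knockdown 1 was higher and 2 lower, where 38.7% of all genes tested were higher or lower. The part of these marker differences in the results below was not tested.

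To set genes beside each other, levels were divided by the length of each gene's annotated exons, joined over all its transcripts. This length is 14.943 kb for MAP4, 14.92 kb for MAPT and 3.032 kb for STMN3. A single transcript can be shorter, so orders between genes and the family shares below depend on this choice. In Control, STMN1 was the most abundant of the 10 at 70.0 ± 0.679 CPM per kb (SD, n = 3 libraries, as for every ± here). MAP4 followed at 16.3 ± 0.559, STMN3 at 13.5 ± 0.324, MAP1B at 7.36 ± 0.0376, MAP1A at 1.92 ± 0.0955 and MAPT at 0.962 ± 0.0559 CPM per kb. MAP6, STMN2, MAP2 and STMN4 were scarce, at 0.261 ± 0.0275, 0.157 ± 0.0554, 0.0852 ± 0.0285 and 0.0306 ± 0.0321 CPM per kb. Of neighbours in this order, MAP2 and STMN4 overlapped between libraries and the other neighbours did not. Reads of all 10 genes were thus found in Control, with STMN1 and MAP4, the members known from dividing cells, at the top. STMN4 had only 4, 0 and 8 counts there, too few to say that Control cells held its RNA.

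The order differed between siRNA groups. In PHF12 knockdown STMN3 stood at 6.80 ± 0.308 CPM per kb and overlapped MAP1B at 7.08 ± 0.259. MAP6 stood there at 0.788 ± 0.0747 CPM per kb and overlapped MAPT at 0.713 ± 0.104, where in Control MAPT was the more abundant in every library. In SUDS3 knockdown STMN3 was second by this measure, at 27.3 ± 2.86 CPM per kb against 19.3 ± 0.528 for MAP4. No library of the one reached the other. Before division by length MAP4 was the higher, at 289 CPM against 82.7 CPM for STMN3. MAP6 in SUDS3 knockdown, at 0.136 ± 0.00723 CPM per kb, lay below STMN2, at 0.362 ± 0.0701.

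**Figure D1:**
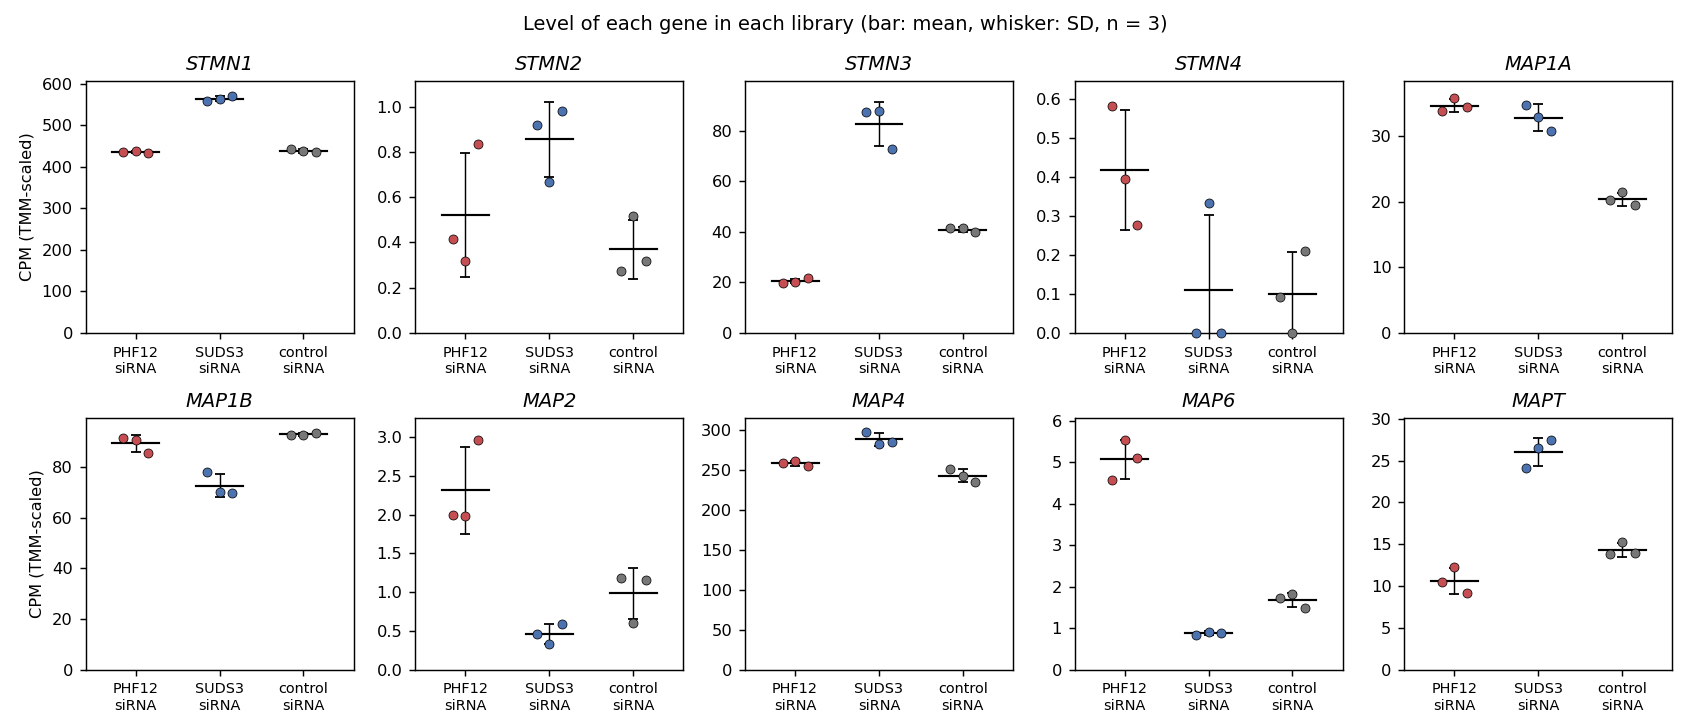
TMM-scaled CPM (vertical axis, linear, from 0) of each of the 10 genes in each library, grouped by siRNA. Dots are libraries, horizontal bars means of 3 and whiskers SDs. STMN3 and MAPT are lowest with the PHF12 siRNA and highest with the SUDS3 siRNA, MAP6 and MAP2 the other way round, and MAP1A is above Control with both.

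A region around an annotated start of transcription is shown for STMN3, MAP1A and MAP2, whose changes with the 2 siRNAs take 3 different forms. RefSeq (GRCh38.p14) gives windows of 250 bases before to 50 after each start, and 6 of the 10 genes have one. Capitals mark the GC-box core GGGCGG or its complement CCGCCC, a motif bound by Sp-family factors and searched on both strands. The STMN3 window is chr20:63652717-63653016 on the minus strand, that of MAP1A, the first of 2 listed, is chr15:43510704-43511003 on the plus strand, and that of MAP2, the first of 3 listed, is chr2:209661246-209661545 on the plus strand.
STMN3: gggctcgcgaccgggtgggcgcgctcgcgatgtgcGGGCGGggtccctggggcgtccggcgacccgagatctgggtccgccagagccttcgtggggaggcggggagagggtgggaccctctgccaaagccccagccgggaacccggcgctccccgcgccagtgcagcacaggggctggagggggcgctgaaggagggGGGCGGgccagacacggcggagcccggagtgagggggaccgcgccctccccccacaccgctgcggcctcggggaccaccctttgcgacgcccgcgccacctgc
MAP1A: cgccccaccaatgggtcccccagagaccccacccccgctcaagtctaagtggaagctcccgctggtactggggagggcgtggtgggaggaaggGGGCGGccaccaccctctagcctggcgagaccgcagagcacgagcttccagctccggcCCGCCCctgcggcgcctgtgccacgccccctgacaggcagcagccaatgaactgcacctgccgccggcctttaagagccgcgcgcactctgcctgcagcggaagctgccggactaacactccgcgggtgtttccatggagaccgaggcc
MAP2: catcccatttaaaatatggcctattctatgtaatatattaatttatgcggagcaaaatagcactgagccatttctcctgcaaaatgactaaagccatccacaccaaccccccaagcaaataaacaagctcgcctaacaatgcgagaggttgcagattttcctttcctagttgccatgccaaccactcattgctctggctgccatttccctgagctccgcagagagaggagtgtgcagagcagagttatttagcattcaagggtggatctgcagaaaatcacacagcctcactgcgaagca

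The STMN3 window has a GC content of 77.7% with 35 CpG dinucleotides and 2 GC-box cores. The MAP1A window shown has 69.3% GC, 23 CpG and 2 cores, and its second window, chr15:43517358-43517657, has 60.0% GC, 10 CpG and 4 cores. The MAP2 window shown has 45.3% GC, 5 CpG and no core, and its other windows have 7 and 10 CpG and no core. Over all 35116 windows in the table the median was 58.7% GC and 14 CpG, and 45% held at least 1 core. Both parts of the RE1 element bound by REST, a repressor of neuronal genes, were searched as TTCAGCACC and GGACAGC on both strands. They were in 0.376% and 6.03% of all windows and in none of those of the 6 members, which says only that these letters are not in these windows.

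Among the stathmins, STMN3 differed in opposite directions with the 2 siRNAs, STMN1 rose with the SUDS3 siRNA, and STMN2 and STMN4 stayed near the limit of detection. STMN3 (ENSG00000197457, GRCh38 chromosome 20, 63639705 to 63657682) encodes the neuronal stathmin SCLIP. Its level was 19.9, 20.3 and 21.7 CPM in PHF12 knockdown, against 41.5, 41.5 and 39.8 CPM in Control. In SUDS3 knockdown it was 87.5, 87.8 and 72.7 CPM. The 3 groups did not overlap. Its log2 fold change against Control was -0.99 (SE 0.07) in PHF12 knockdown and 1.01 (SE 0.06) in SUDS3 knockdown, so RNA of STMN3 was at 50.4% of Control in the one and 202% in the other. Between the knockdowns themselves it was 2.00 (SE 0.07), SUDS3 over PHF12. In bulk RNA, fewer cells with a transcript and less RNA per cell cannot be told apart, here and for the genes that follow.

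STMN1 (ENSG00000117632, chromosome 1, 25884181 to 25906991), or oncoprotein 18, is the stathmin of dividing cells. It was at 559, 564 and 571 CPM in SUDS3 knockdown, against 443, 438 and 435 CPM in Control, and every SUDS3 knockdown library was above every Control library. The rise was small and precise, with a log2 fold change of 0.36 (SE 0.03, edgeR adjusted p = 1.99e-13). In PHF12 knockdown STMN1 was at 436, 437 and 432 CPM, within the range of Control or just below it. The log2 fold change of STMN1 there was -0.01, with a 95% interval of -0.06 to 0.04 (edgeR adjusted p = 0.843), and its sign turned with upper-quartile scaling and in DESeq2. SUDS3 knockdown was above PHF12 knockdown by 0.37 (SE 0.03, edgeR adjusted p = 3.82e-14). Pseudogenes STMN1P1 and STMN1P2 and the microRNA gene MIR3917, which shares 66 exonic bases, could take or lend reads of STMN1.

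STMN2 (ENSG00000104435, chromosome 8, 79610814 to 79666175), the growth cone stathmin SCG10, had counts of 20, 16 and 36 in PHF12 knockdown libraries. It had 40, 32 and 40 in SUDS3 knockdown libraries, and 12, 24 and 12 in Control. Of the counts of the 10 genes above 0, 98.9% are multiples of 4, so such counts stand for about 4 times fewer sequenced fragments. The SUDS3 knockdown libraries were all above Control, with a log2 fold change of 1.19 (SE 0.55) that did not pass (edgeR adjusted p = 0.0868) but passed in DESeq2 (adjusted p = 0.0335) and in limma on the deposited TPM (adjusted p = 0.0305). With the PHF12 siRNA the difference was 0.48 (SE 0.56, edgeR adjusted p = 0.585). STMN4 (ENSG00000015592, chromosome 8, 27235323 to 27258420), the neuronal stathmin RB3, had 28, 20 and 12 counts in PHF12 knockdown, 0, 16 and 0 in SUDS3 knockdown, and 4, 0 and 8 in Control. It entered the test through PHF12 knockdown libraries alone, as the only one of the 10 genes to do so. For this reason its difference from Control is read from these counts alone, with no test, although its fold changes are drawn beside those of the other genes. At 4 counts a fragment, the 0 of a SUDS3 knockdown library allows up to 3 fragments, or 12 counts (0.294 CPM in replicate 3), for counting error only. That limit reaches into the range of PHF12 knockdown.

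Of the microtubule-associated proteins, MAP6 and MAP2 were higher with the PHF12 siRNA and lower with the SUDS3 siRNA, and MAPT went the other way. MAP6 (ENSG00000171533, chromosome 11, 75586918 to 75669120), the stable tubule only protein, was at 4.57, 5.54 and 5.09 CPM in PHF12 knockdown. In SUDS3 knockdown MAP6 was at 0.826, 0.918 and 0.883 CPM, and in Control at 1.74, 1.82 and 1.48 CPM. The 3 groups did not overlap, and MAP6 stood at 302% of Control with the PHF12 siRNA and at 52.2% with the SUDS3 siRNA. Its log2 fold changes were 1.59 (SE 0.22) and -0.94 (SE 0.24). SUDS3 knockdown was below PHF12 knockdown by 2.53 on the log2 scale (SE 0.23). This difference is made of the fold changes against Control that prompted the choice of MAP6, so its size is no separate result.

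MAP2 (ENSG00000078018, chromosome 2, 209424058 to 209734118) was at 2.00, 1.98 and 2.96 CPM in PHF12 knockdown, against 1.19, 0.605 and 1.16 CPM in Control. In SUDS3 knockdown it was at 0.459, 0.334 and 0.588 CPM. The ranges of MAP2 did not overlap, although Control replicate 2 lay close to the highest SUDS3 knockdown library. MAP2 rose with the PHF12 siRNA by 1.23 on the log2 scale (SE 0.34, edgeR adjusted p = 0.00402), a call lost without PHF12 knockdown replicate 3 (log2 fold change 1.02, edgeR adjusted p = 0.0532). It fell with the SUDS3 siRNA (log2 fold change -1.10, SE 0.37, edgeR adjusted p = 0.0173), and that call was lost without Control replicate 1, Control replicate 3 or SUDS3 knockdown replicate 2 (edgeR adjusted p = 0.0783, 0.0646 and 0.0855). Between the knockdowns MAP2 was lower with the SUDS3 siRNA (log2 fold change -2.33, SE 0.36, edgeR adjusted p = 1.31e-06), a difference that passed under every alternative tried.

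MAPT (ENSG00000186868, chromosome 17, 45894382 to 46028334) was at 10.5, 12.3 and 9.17 CPM in PHF12 knockdown, against 13.8, 15.3 and 13.9 CPM in Control. In SUDS3 knockdown it was at 24.1, 26.5 and 27.5 CPM. No library of one group reached another. The fall of MAPT with the PHF12 siRNA was 0.43 on the log2 scale (SE 0.10, edgeR adjusted p = 0.000868). Its rise with the SUDS3 siRNA was 0.86 (SE 0.10, edgeR adjusted p = 4.58e-09), and SUDS3 knockdown was above PHF12 knockdown by 1.29 (SE 0.10, edgeR adjusted p = 1.51e-13). MAPT thus lay on the same side of Control as STMN3 with each siRNA, with smaller log2 fold changes. Its antisense gene MAPT-AS1 shares 75 exonic bases, and whether the counting used strand is not known here.

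**Figure D2:**
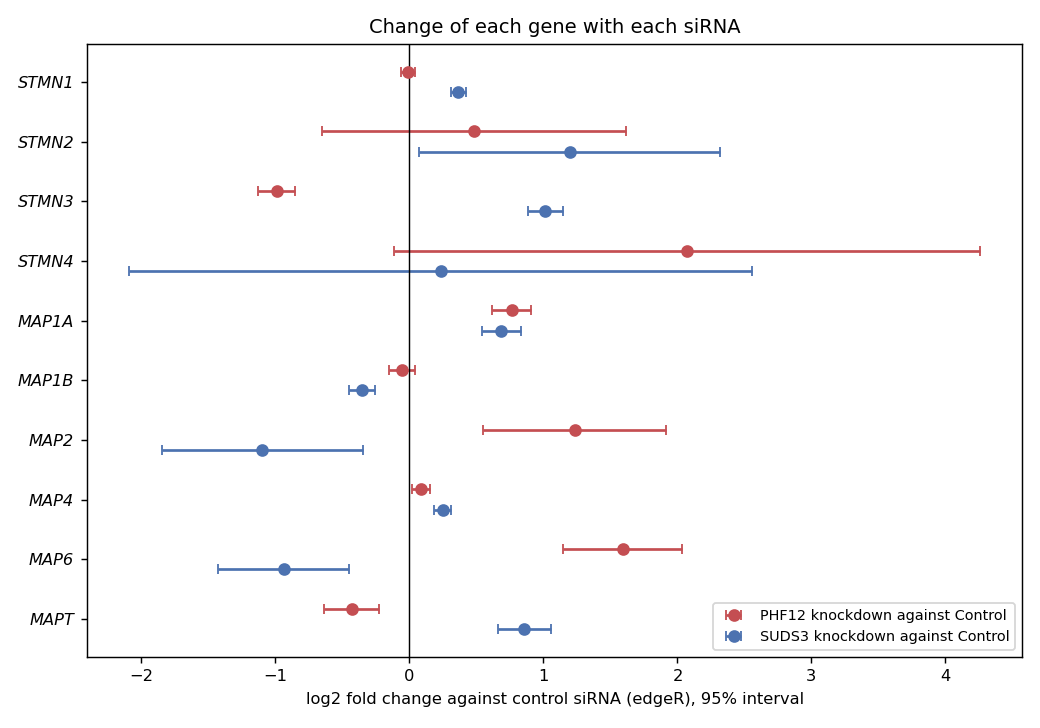
Log2 fold change (horizontal axis) of each gene against Control in the edgeR fit, with its 95% interval, for PHF12 knockdown (red, upper of each pair) and SUDS3 knockdown (blue). The pairs of STMN3, MAP2, MAP6 and MAPT lie on opposite sides of 0, and that of MAP1A lies together at 0.76 and 0.69. The intervals of STMN2 and STMN4 are the widest. Those of MAP6 and STMN3, which prompted the choice of the genes, are a description. STMN4 entered the fit through PHF12 knockdown libraries alone, so its intervals are drawn but not read as a test.

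MAP1A rose by a like amount with both siRNAs, MAP4 rose slightly with both, and MAP1B fell with the SUDS3 siRNA. MAP1A (ENSG00000166963, chromosome 15, 43510958 to 43531620) encodes a polyprotein cleaved into heavy and light chains and is known from dendrites of mature neurons. It was at 33.8, 35.7 and 34.5 CPM in PHF12 knockdown, at 34.8, 33.0 and 30.7 CPM in SUDS3 knockdown and at 20.3, 21.4 and 19.4 CPM in Control. Both knockdowns were above Control in every library and overlapped each other. The log2 fold change of MAP1A was 0.76 (SE 0.07, edgeR adjusted p = 7.14e-11) with the PHF12 siRNA and 0.69 (SE 0.07, edgeR adjusted p = 1.11e-09) with the SUDS3 siRNA. The 2 fold changes share the Control libraries. Compared directly, SUDS3 knockdown differed from PHF12 knockdown by -0.08 with a 95% interval of -0.22 to 0.06 (edgeR adjusted p = 0.395), which bounds a difference without showing that there is none.

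MAP1B (ENSG00000131711, chromosome 5, 72107234 to 72209570), a relative of MAP1A known from growing axons, was at 78.2, 70.2 and 69.9 CPM in SUDS3 knockdown, against 92.9, 92.6 and 93.5 CPM in Control. In PHF12 knockdown it was at 91.7, 90.8 and 85.7 CPM, just below Control in each library. The fall with the SUDS3 siRNA was 0.35 on the log2 scale (SE 0.05, edgeR adjusted p = 2.01e-07). That with the PHF12 siRNA did not pass (log2 fold change -0.06, SE 0.05, edgeR adjusted p = 0.417). For MAP1B, levels in SUDS3 knockdown were also below those in PHF12 knockdown (log2 fold change -0.30, SE 0.05, edgeR adjusted p = 2.66e-06). MAP1A and MAP1B, 2 genes of one family, thus took different courses with the SUDS3 siRNA.

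MAP4 (ENSG00000047849, chromosome 3, 47850690 to 48089272), the main structural microtubule-associated protein of cells other than neurons, was at 298, 283 and 286 CPM in SUDS3 knockdown, against 252, 243 and 235 CPM in Control. In PHF12 knockdown it was at 259, 262 and 256 CPM. MAP4 rose by 0.25 with the SUDS3 siRNA (SE 0.03, edgeR adjusted p = 1.34e-07) and by 0.09 with the PHF12 siRNA (SE 0.03, edgeR adjusted p = 0.0335). The second call was lost in limma on the deposited TPM (adjusted p = 0.0597) and without any one of Control replicates 2 and 3 and PHF12 knockdown replicates 1 and 2 (edgeR adjusted p between 0.0759 and 0.161). SUDS3 knockdown was above PHF12 knockdown by 0.16 (SE 0.03, edgeR adjusted p = 0.000122).

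In all, 6 of the 10 genes were called with the PHF12 siRNA, 4 higher (MAP1A, MAP2, MAP4, MAP6) and 2 lower (STMN3, MAPT), where 31.9% of the 18088 genes tested were called, 14.8% higher and 17.1% lower. With the SUDS3 siRNA 8 were called, 5 higher (STMN1, STMN3, MAP1A, MAP4, MAPT) and 3 lower (MAP1B, MAP2, MAP6), where 38.7% of all genes were called, 19.6% higher and 19.2% lower. Between the knockdowns 7 were called, 4 higher with the SUDS3 siRNA (STMN1, STMN3, MAP4, MAPT) and 3 lower (MAP1B, MAP2, MAP6), where 43.9% of all genes were called, 22.7% higher and 21.1% lower. MAP6 and STMN3 are in each of these counts, although their fold changes prompted the choice of the genes. For this reason nothing is read from the counts. The 10 genes had a median log2 fold change of 0.28 in PHF12 knockdown, where all genes had -0.0036. In SUDS3 knockdown that median was 0.31, where all genes had -0.02. These medians take in MAP6, STMN3 and STMN4, so nothing is read from them either. Scaling shifted the split of calls over all genes: under TMM 46.4% of the PHF12 siRNA calls were higher and under upper-quartile scaling 56.9%, and between the knockdowns 51.8% and 41.2%. Calls of the 10 genes had the same directions with both scalings.

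Summed over each family, the stathmins reached 76.7 ± 0.119 CPM per kb in PHF12 knockdown, 117.8 ± 2.02 in SUDS3 knockdown and 83.7 ± 0.926 in Control. STMN1 made up 90.7 ± 0.496% of that sum in PHF12 knockdown, 76.5 ± 2.04% in SUDS3 knockdown and 83.6 ± 0.247% in Control. STMN3 made up nearly all of the rest, with 8.87 ± 0.404% in PHF12 knockdown, 23.1 ± 2.06% in SUDS3 knockdown and 16.1 ± 0.240% in Control. The 6 microtubule-associated proteins summed to 29.4 ± 0.563 CPM per kb in PHF12 knockdown, 30.1 ± 0.930 in SUDS3 knockdown and 26.9 ± 0.597 in Control. MAP4 held most of that sum, 59.0 ± 0.439% in PHF12 knockdown, 64.2 ± 0.380% in SUDS3 knockdown and 60.6 ± 0.789% in Control. The share of MAP1B was 24.1 ± 0.584% in PHF12 knockdown, 19.1 ± 0.631% in SUDS3 knockdown and 27.4 ± 0.735% in Control. That of MAP1A was 11.1 ± 0.252% in PHF12 knockdown, 10.2 ± 0.420% in SUDS3 knockdown and 7.14 ± 0.295% in Control. MAP2, MAP6 and MAPT made up the small remainder in every group.

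**Figure D3:**
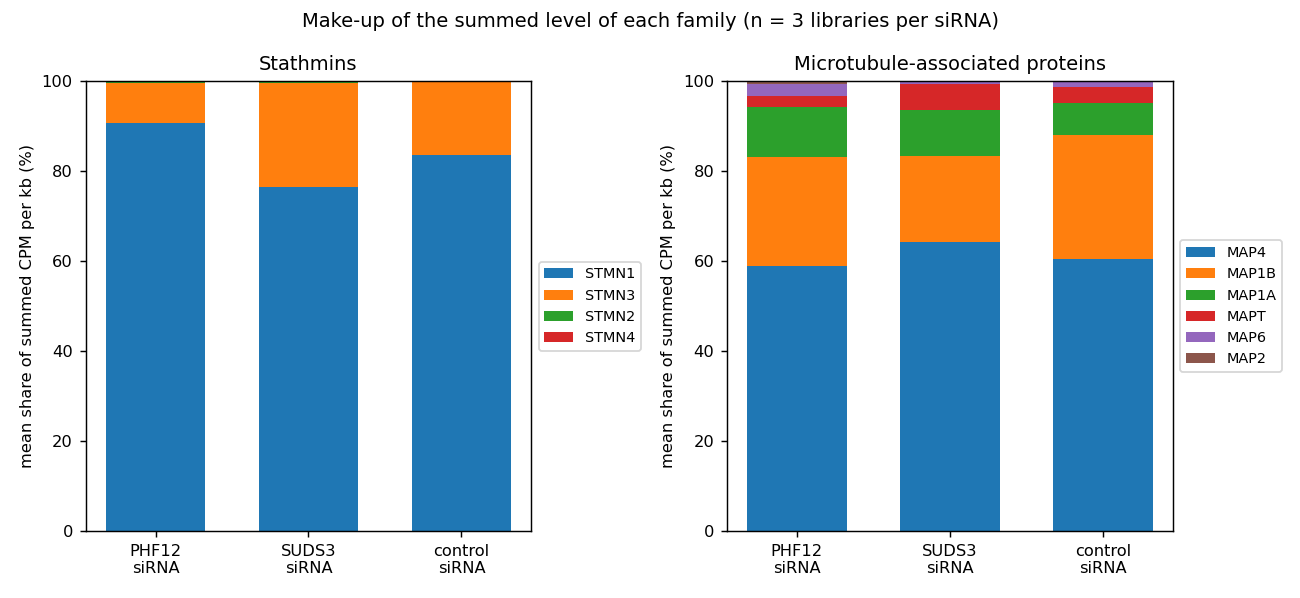
Mean share (vertical axis, %) of each gene in the summed CPM per kb of its family, for 3 libraries per siRNA. STMN3 takes 8.87% of the stathmin sum with the PHF12 siRNA, 23.1% with the SUDS3 siRNA and 16.1% in Control, while MAP4 and MAP1B lead the other family in every group.

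Genes with the most similar course over the 9 libraries were found by the root mean square distance of their log2 CPM, each taken relative to its own Control mean, among 11723 genes. Nearest to STMN3 was SYP, the synaptic vesicle protein synaptophysin, at a distance of 0.149. GABRD, a GABA receptor subunit, followed at 0.184 and the kinase gene PIM2 at 0.215. Nearest to MAP6 were PALM3 (0.269), SYT11 (0.298), which encodes a synaptotagmin, and C16orf45 (0.336). C16orf45 and PALM3 were also the 2 nearest to MAP2, at 0.359 and 0.387, with OLFML2B at 0.389. Nearest to MAPT were BTN3A1 (0.151), PBXIP1 (0.160) and MAML3 (0.160), and to MAP1A the tropomyosin gene TPM3 (0.067), SYPL1 (0.086) and YPEL3 (0.091). MAP4 lay nearest to RALY (0.032), IGF2BP1 (0.034) and DNM2 (0.034). The median distance of all genes was 0.236 for MAP4, 0.586 for MAPT, 0.623 for MAP1A and 0.831 for STMN3. It was 1.003 for MAP2 and 1.073 for MAP6, so distances of different members are not compared. Genes picked as the nearest lie below these medians by design. For STMN3 and MAP6 the matching also uses the fold changes that prompted their choice.

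The list of tubulins holds genes of alpha- and beta-tubulin, the substrate of all 10 proteins, and also of gamma-, delta- and epsilon-tubulin. Of its 16 tested genes 8 were called with each siRNA, where 31.9% of all genes were called in PHF12 knockdown and 38.7% in SUDS3 knockdown. With the PHF12 siRNA 1 was higher and 7 were lower (14.8% and 17.1% of all genes, median log2 fold change -0.11). In SUDS3 knockdown 4 were higher and 4 lower (19.6% and 19.2% of all genes, median -0.02). TUBB2B, a beta-tubulin of the developing brain, fell to 17.5 ± 1.27 CPM in PHF12 knockdown, against 47.1 ± 0.965 CPM in Control (log2 fold change -1.43, SE 0.07, edgeR adjusted p = 7.20e-19). The alpha-tubulin TUBA1A was the one that rose there, to 136 ± 4.82 CPM against 101 ± 5.71 CPM (log2 fold change 0.43, SE 0.04, edgeR adjusted p = 5.07e-10). TUBB2A went in opposite directions, with 16.7 ± 0.388 CPM in PHF12 knockdown, 29.8 ± 3.08 CPM in SUDS3 knockdown and 21.7 ± 1.88 CPM in Control (edgeR adjusted p = 0.000676 and 3.15e-05). In SUDS3 knockdown TUBB4A rose (log2 fold change 0.42) and TUBA1B, at 950 ± 23.3 CPM, fell (-0.26). Tubulin genes are near-copies of each other and the authors' counting could have split their reads, so values of single tubulins are uncertain.

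Other structural microtubule-associated proteins were higher in 6 and lower in 3 of 17 tested genes with the PHF12 siRNA, where 14.8% of all genes were higher and 17.1% lower (median 0.04). With the SUDS3 siRNA 8 were higher and 2 lower, beside 19.6% and 19.2% of all genes (median 0.17). MAP1S, the third gene of the MAP1 family, rose with both, to 41.5 ± 3.89 CPM in PHF12 knockdown and 40.1 ± 2.39 CPM in SUDS3 knockdown, against 31.4 ± 1.89 CPM in Control (edgeR adjusted p = 1.71e-05 and 9.07e-05). PRC1, which bundles microtubules of the mitotic midzone, fell in PHF12 knockdown (log2 fold change -0.93, SE 0.14, edgeR adjusted p = 1.05e-06), though its exons share 3181 bases with another gene on its strand. MTUS1 fell there too (-0.41). In SUDS3 knockdown the neuronal kinase DCLK1, which binds microtubules, rose by 0.48 and the minus-end binding CAMSAP3 by 0.46.

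Plus-end binding proteins, which ride on growing ends, were higher in 4 and lower in 5 of 15 with the PHF12 siRNA (31.9% of all genes called), and higher in 5 and lower in 3 with the SUDS3 siRNA (38.7% of all genes called). SLAIN2, a promoter of growth, fell to 12.7 ± 1.60 CPM in PHF12 knockdown, against 30.3 ± 0.979 CPM in Control (log2 fold change -1.25, SE 0.08, edgeR adjusted p = 5.45e-15). CLASP1 fell by 0.49 and CLIP2 rose by 0.78 there. MAPRE2 fell by 0.57 and CLIP4 by 0.66 in SUDS3 knockdown, where SLAIN2 rose by 0.30 (edgeR adjusted p = 0.0019). MAPRE3 rose with both siRNAs, by 0.36 in PHF12 knockdown and by 0.30 in SUDS3 knockdown (edgeR adjusted p = 0.00133 and 0.0065). Severing and depolymerising enzymes were called in 4 of 9 with the PHF12 siRNA (31.9% of all genes called, 14.8% higher), all higher by edgeR, with none lower at an unadjusted p under 0.05 or in DESeq2. FIGN, KIF2A and KIF2C were the largest, at 0.30, 0.23 and 0.26. With the SUDS3 siRNA 3 were higher and 3 lower (38.7% of all genes called), with the katanin subunit KATNA1 up by 0.36 and FIGNL1 down (log2 fold change -0.35).

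Tubulin-modifying enzymes add or remove groups such as tyrosine, glutamate or acetyl. With the PHF12 siRNA 4 of 19 were higher and 4 lower, where 14.8% of all genes were higher and 17.1% lower (median 0.03). With the SUDS3 siRNA they were higher in 8 and lower in 1, where 19.6% of all genes were higher and 19.2% lower (median 0.17). The one lower gene was AGBL3, a carboxypeptidase, at 4.13 ± 1.12 CPM in SUDS3 knockdown and 4.95 ± 0.792 CPM in PHF12 knockdown, against 6.85 ± 0.491 CPM in Control (edgeR adjusted p = 0.000786 and 0.0340). TTLL11 rose in SUDS3 knockdown (log2 fold change 0.68, SE 0.16, edgeR adjusted p = 0.000551) and TTLL3 with both siRNAs, by 0.38 in PHF12 knockdown and 0.39 in SUDS3 knockdown. Of 17 kinases of stathmins, tau and the other proteins, 5 were higher and 4 lower with the PHF12 siRNA (31.9% of all genes called), and 5 higher and 5 lower with the SUDS3 siRNA (38.7% of all genes called). UHMK1, which phosphorylates stathmin, fell to 106 ± 9.57 CPM in PHF12 knockdown and to 113 ± 3.10 CPM in SUDS3 knockdown, against 182 ± 3.80 CPM in Control (edgeR adjusted p = 2.10e-16 and 1.04e-14). MARK4, a tau kinase, rose by 0.55 and CAMK4, a stathmin kinase, fell by 0.62 in SUDS3 knockdown.

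The list of neuronal cytoskeleton and growth cone markers was higher in 4 and lower in 4 of 12 with the PHF12 siRNA (31.9% of all genes called), and higher in 3 and lower in 1 with the SUDS3 siRNA (38.7% of all genes called). Its summed level was between 565.3 and 585.6 CPM in PHF12 knockdown, 740.4 and 767.3 CPM in SUDS3 knockdown and 605.0 and 622.5 CPM in Control. NEFM, a neurofilament gene, was the largest part of that sum. It was at 363 ± 11.9 CPM in SUDS3 knockdown against 276 ± 7.50 CPM in Control (log2 fold change 0.40, SE 0.03, edgeR adjusted p = 1.63e-12). With the PHF12 siRNA NEFM was lower, at 238 ± 2.00 CPM (log2 fold change -0.215, SE 0.03, edgeR adjusted p = 1.32e-06). INA, another neurofilament gene, fell in PHF12 knockdown (log2 fold change -0.83, SE 0.05, edgeR adjusted p = 1.55e-15), where NEFL rose by 0.32 and CRMP1 by 0.71. DPYSL4 rose by 0.69 in SUDS3 knockdown and fell in PHF12 knockdown (log2 fold change -0.273, edgeR adjusted p = 0.00254). GAP43, the growth cone protein, fell by 0.44 in SUDS3 knockdown. Of the 52 genes named beside the 10, 17 share exonic bases with a tested gene on the opposite strand and 3 (PRC1, KIF2A and MARK4) with one on the same strand.

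**Figure D4:**
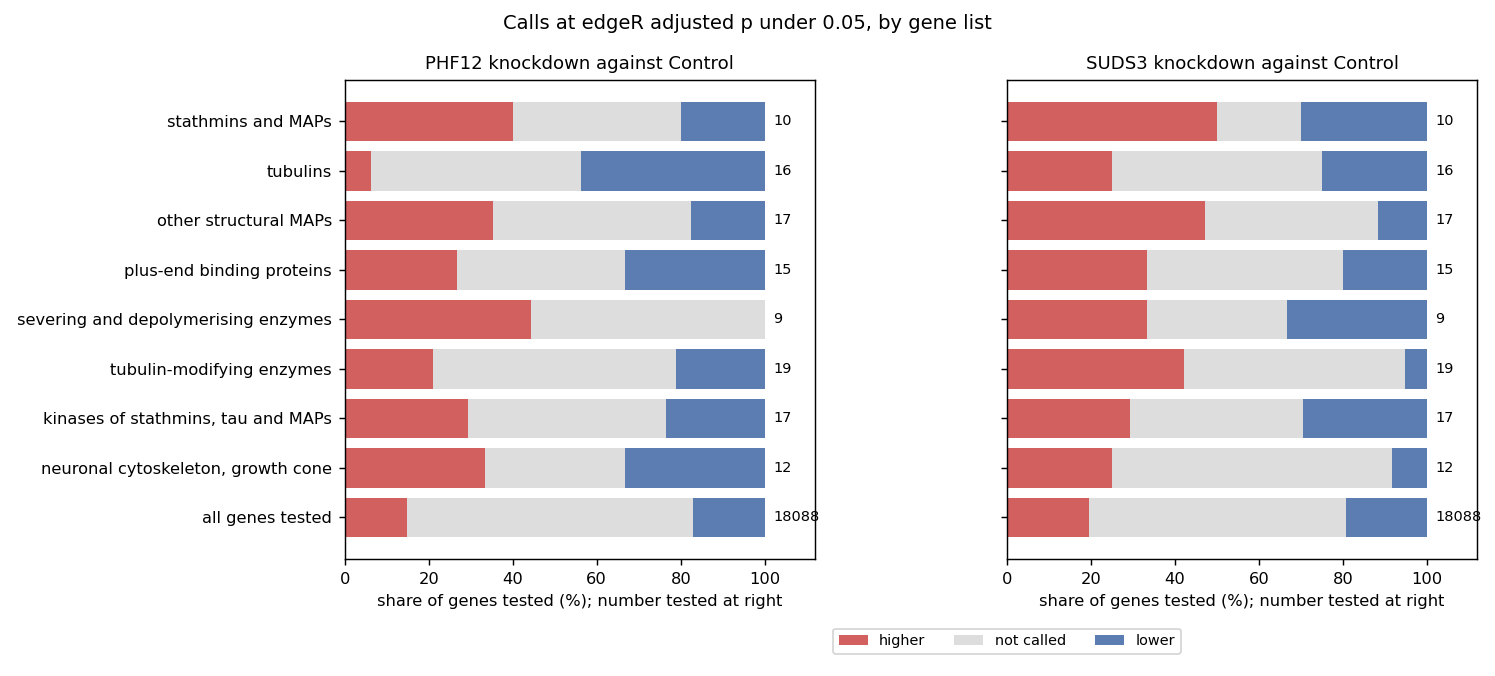
Share of tested genes (horizontal axis, %) called higher (red), lower (blue) or not called (grey) in each gene list and over all genes, for PHF12 knockdown (left) and SUDS3 knockdown (right) against Control; the number tested is at the right of each bar. Tubulins are called lower in 7 of 16 with the PHF12 siRNA, and tubulin-modifying enzymes higher in 8 of 19 with the SUDS3 siRNA. The bar of the stathmins and microtubule-associated proteins includes MAP6 and STMN3, whose fold changes prompted the choice.

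An siRNA can also lower transcripts other than its target through short matches in the 3′ UTR. An earlier scan of these same fold changes had picked 1 hexamer for each siRNA, AATCAC for the PHF12 siRNA and TACATT for the SUDS3 siRNA, so what follows is a description. Over 13655 genes, 31% held AATCAC in their longest annotated 3′ UTR, and their median log2 fold change with the PHF12 siRNA was -0.12, against 0.04 for the others. For TACATT and the SUDS3 siRNA 41.2% held it, with medians of -0.06 and 0.04. Neither pair of medians was matched for 3′ UTR length, and longer 3′ UTRs held the hexamers more often. AATCAC was in 16.6% of genes with a 3′ UTR near the 914 bases of STMN1. It was in 61.4% of those near the 4331 bases of MAP1B. Of the 2 genes lower with the PHF12 siRNA, STMN3 held no AATCAC and MAPT held 2, and MAP2, which rose, held 2. All 3 genes lower with the SUDS3 siRNA held TACATT: MAP1B 5 times, MAP2 and MAP6 2 times each. STMN2, which was not called, held it 1 time and MAP4, which rose, 3 times. STMN3 and MAPT, which were higher with that siRNA, held none. The 3′ UTR scanned for MAP4 ends at 47973084 on the minus strand, inside a gene that reaches to 47850690. A 3′ UTR at the far end of the MAP4 gene was not scanned. Genes with 3′ UTRs of like length held TACATT in 76.5% of cases for MAP1B, 71.2% for MAP2 and 63.8% for MAP6. The part of these matches in the falls was not tested.

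One TACATT match each of MAP1B, MAP2 and MAP4 is shown with the hexamer in capitals (GRCh38). MAP1B and MAP2 fell with the SUDS3 siRNA and MAP4 rose. The match of MAP4 lies in the 3′ UTR that ends inside its gene. The MAP1B match is at chr5:72207040-72207061 on the plus strand, that of MAP2 at chr2:209730710-209730731 on the plus strand and that of MAP4 at chr3:47974428-47974449 on the minus strand.
MAP1B: agaaatagTACATTgaaaacaa
MAP2: ctatccacTACATTctgaaggc
MAP4: ttgagataTACATTgttttttg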

How the data were processed

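Libraries were stranded poly-A RNA-seq made with a TruSeq kit, per the labels' protocols. Trimmomatic 0.36, HISAT2 2.1.0, HTSeq and build GRCh38 are listed in the submitters' processing notes; a strand setting for the counting was not found in them or in the labels. Deposited by the authors were counts per Ensembl gene and TPM. Most deposited counts (96.1% of those above 0) are multiples of 4. The number of counts per unit of deposited TPM bore no relation to gene length (Spearman rho 0.0057 across 11143 genes), so levels between genes were compared as CPM per kb of annotated exon (GENCODE 29) in place of the planned TPM.

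The edgeR package (4.0.16, R 4.3.3) was used on the counts: filterByExpr (minimum count 10), TMM, a robust quasi-likelihood model with a mean per group over all 9 libraries, F-tests, and Benjamini-Hochberg adjustment over 18088 genes. Genes with an adjusted p under 0.05 were called; SEs come from the F-statistic. All 10 members passed the filter. The fit was tested on simulated data. Alternatives were DESeq2 1.42.0, limma 3.58.1 on log2(TPM + 1), upper-quartile scaling, no filter, counts divided by 4, 2-group fits, a replicate block and leaving out each library.

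The members and gene lists were chosen with earlier results of these data known. Genes named beside the members are, per list and siRNA, up to 3 called genes with the largest absolute fold change and average log2 CPM at or above 1, and the 3 genes nearest in course to MAP6, STMN3 and each member called with both siRNAs. A gene named under either siRNA could also be called with the other, in the same or the opposite direction. The labels do not say that replicates were separate cultures, so p-values measure the spread between libraries, which may be technical. Replicate libraries differed beyond counting error. Proteins were not printed, and 4 members have no promoter window in the table used here.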

Additional observations from a re-analysis of the deposited data

How the results depend on the processing

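The number of genes called stayed within 1.5 times the main count in each comparison and under every alternative tried, and so did the number of the 10 genes called. With a replicate block, edgeR called 5848 genes with the PHF12 siRNA, 7073 with the SUDS3 siRNA and 7981 between the knockdowns, and 6, 8 and 7 of the 10 genes, with no call of theirs changed. Libraries of the same number did not deviate together more than others did. Correlations were -0.0936 to 0.0915 for the same number and -0.0978 to 0.0904 for different numbers. This showed no pairing but cannot exclude one, since the spread of single libraries could hide it. Leaving out 1 library in turn gave 4918 to 5800 genes called with the PHF12 siRNA, 6100 to 6943 with the SUDS3 siRNA and 7304 to 7983 between the knockdowns. Signs turned in genes that were not called: STMN1 with the PHF12 siRNA (0.0018 in DESeq2, 0.0287 with upper-quartile scaling), STMN2 with the PHF12 siRNA (-0.0217 without PHF12 knockdown replicate 3, in a leave-one-out range up to 0.81), and STMN4 with the SUDS3 siRNA (-0.20 with the block, -0.37 without Control replicate 2, and -5.15 without SUDS3 knockdown replicate 2, where that group is at 0 and the fold is no bound; its leave-one-out range reached 1.29). MAP2 with the SUDS3 siRNA was not called in limma on TPM (log2 fold change -0.42, adjusted p = 0.0673) or in the 2-group fit (edgeR adjusted p = 0.0759). On the log2(TPM + 1) scale, which understates changes of low values, the rise of MAP2 with the PHF12 siRNA was 0.74. The cause of these changes was not tested. Counts near 0 limit STMN2, STMN4, MAP2 and, less so, MAP6. With counts divided by 4, 14548 genes were tested, and 8 of the 10: STMN2 and STMN4 dropped out.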

Other observations

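In the deposited TPM, the number of counts per unit of TPM did not follow gene length. Across 11143 genes its log10 had a Pearson r of 0.00015 with the log10 of exonic length. MAPT had 7.40 counts per TPM and STMN1 169, a ratio of 0.0438, although the exons of MAPT are 2.38 times as long. Within a gene TPM still ranks the groups as CPM does, as for MAP6, which had 21.8 ± 2.06 TPM in PHF12 knockdown, 3.81 ± 0.201 TPM in SUDS3 knockdown and 7.20 ± 0.752 TPM in Control (SD, n = 3).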
